A study of Mus musculus with 6 samples.

Results

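The 6 genes described here encode the main zinc buffer of the cell, a factor that controls it, or zinc transporters. They are the metallothionein genes Mt1 and Mt2, the metal-sensing transcription factor gene Mtf1, and the zinc transporter genes Slc30a1, Slc39a1 and Slc39a10. They are 6 of the 23282 rows of the deposited count table, and all 6 entered the comparison of genotypes. The members were chosen by name and on results of this same comparison in all 6 libraries, so their genotype differences are a description and not independent evidence.

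RNA was measured in alveolar macrophages, the resident phagocytes of the air spaces, sorted from mouse lung on 5 surface proteins (positive for SiglecF, F4/80, CD11c and CD45, and without CD11b). There were 3 wildtype (WT) libraries and 3 libraries from mice with Sdha-flox alleles and LysM-Cre (Sdha-KO). The deleted gene, Sdha, codes for the catalytic flavoprotein of succinate dehydrogenase. LysM-Cre is expressed from the Lyz2 locus in myeloid cells in general, so the deletion is not limited to alveolar macrophages. The labels give no age, sex or strain, leave unsaid whether the WT mice carried floxed alleles or Cre, and name neither single mice nor pools as the source of a library. The p-values therefore rest on the spread of these libraries, part of which may be technical. The labels repeat the replicate number as a batch number, which puts 1 WT and 1 Sdha-KO library in each of 3 batches.

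Metallothioneins are small cysteine-rich proteins that bind zinc and copper and release zinc to other proteins. Free zinc activates MTF1, which binds metal response elements in promoters and induces Mt1, Mt2 and the zinc exporter gene Slc30a1, whereas it represses the importer gene Slc39a10. Proteins of the SLC30 family move zinc out of the cytosol and those of the SLC39 family move it in. In macrophages this system takes part in metal storage and in withholding zinc from microbes, and metallothionein genes also respond to glucocorticoids and oxidative stress.

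Upstream sequences of the members with metal response letters are shown, because Mt1 and Mt2 are neighbours whose levels are compared in what follows. The core searched was TGCACNC or TGCGCNC on both strands, in the window that the RefSeq promoter table gives for each start (GRCm38.p6, 250 bases before it). All 6 members had an entry, and Slc39a10 had 2 starts. The runs below stop before the first annotated base of the gene in RefSeq or GENCODE, on the plus strand, and capitals mark matches to the core. They are chr8:94178839-94179081 for Mt1, chr8:94172368-94172617 for Mt2 and chr1:191906531-191906766 for Slc30a1.
Mt1: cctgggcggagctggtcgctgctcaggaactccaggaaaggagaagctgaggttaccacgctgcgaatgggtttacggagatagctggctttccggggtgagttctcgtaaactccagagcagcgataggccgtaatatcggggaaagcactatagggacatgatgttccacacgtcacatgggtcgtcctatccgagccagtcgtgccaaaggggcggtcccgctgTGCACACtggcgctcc
Mt2: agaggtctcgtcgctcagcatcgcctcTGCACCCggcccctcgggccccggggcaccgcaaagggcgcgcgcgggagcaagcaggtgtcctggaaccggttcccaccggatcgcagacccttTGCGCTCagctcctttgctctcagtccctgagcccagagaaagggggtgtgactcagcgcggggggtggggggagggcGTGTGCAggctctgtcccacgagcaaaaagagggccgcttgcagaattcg
Slc30a1: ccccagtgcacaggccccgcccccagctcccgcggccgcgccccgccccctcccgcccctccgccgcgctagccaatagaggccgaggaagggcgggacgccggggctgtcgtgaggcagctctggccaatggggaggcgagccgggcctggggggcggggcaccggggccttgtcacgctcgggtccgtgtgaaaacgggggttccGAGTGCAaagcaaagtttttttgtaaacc

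Before its RefSeq start Mt2 had 3 matches to the metal response core, at 223, 128 and 50 bases before the start by their first base. GENCODE places the start of Mt2 further downstream, and 4 matches lie before that start. Mt1 had 1 match, 23 bases before its start, and Slc30a1 had 1 match, 43 bases before. Further matches of Mt1 begin at bases 3 and 21 counted from its RefSeq start. The number before the start thus depends on the start annotated, and the difference between Mt1 and Mt2 was not tested. Bases more than 50 past a RefSeq start were not searched, so the counts do not cover all such letters of a gene. The windows of Mtf1, Slc39a1 and both starts of Slc39a10 held none. Of 32851 promoter windows of this length, 21.4% held at least 1 match and 1.26% held 3 or more. In the whole table window of 300 bases, which runs on past the start, there were 4 matches for Mt2, 3 for Mt1 and 2 for Slc30a1, and 25.7% of all windows held at least 1. The match of Mt2 nearest before the start shares bases with a match to the hypoxia response core, searched as ACGTG or GCGTG on both strands. That core was found before the start in 2 places for Mt1, 1 for Mt2, 1 for Slc30a1 and 1 for Slc39a1, against a share of 38.6% of all windows with at least 1 match. These matches describe letters only.

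**Figure D1:**
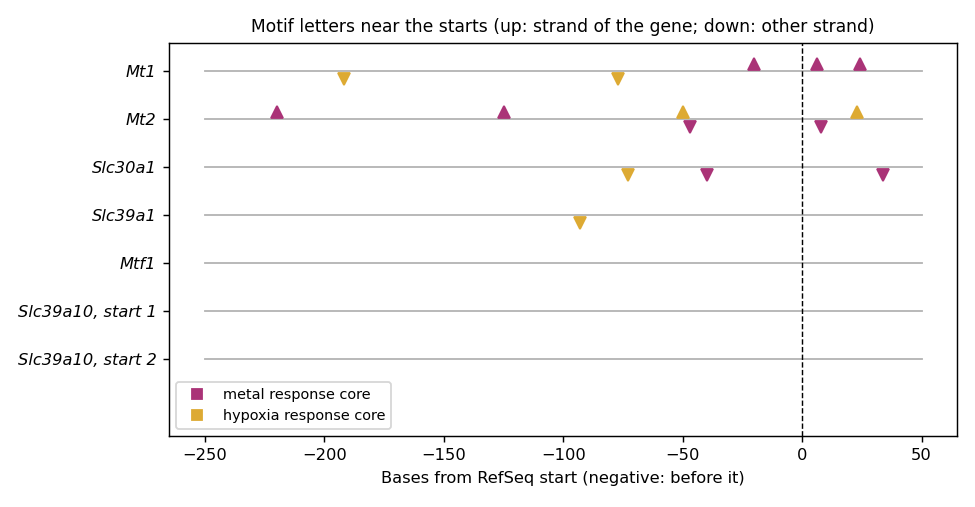
Positions of metal response core and hypoxia response core letters from 250 bases before to 50 bases after each RefSeq start of the 6 members, 1 line per start, with up triangles for the strand of the gene and down triangles for the other strand. Mt2 carries 4 and Mt1 carries 3 metal response matches over the 300 bases, and Mtf1 and both starts of Slc39a10 carry none of either core.

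Total counts per library ran from 5400160 to 8472907. The ribosomal RNA row Rn45s alone held 36.3%, 57.6% and 44.7% of them in WT replicates 1 to 3. In Sdha-KO replicates 1 to 3 it held 20.9%, 43.4% and 48.2%. Levels are counts scaled to library size and composition (CPM), and a count of 0 allows up to 3 counts, or 0.25 to 0.666 CPM by library, for counting error only. The batch 1 libraries stood apart: WT replicate 1 had 7893 genes with a count and Sdha-KO replicate 1 had 5438, against 11383 to 13050 in the other 4. Among the 3447 genes that reached 100 counts in all 4 of those, 136 lacked any count in WT replicate 1, as did 612 in Sdha-KO replicate 1. Sdha was at 56, 65.5 and 72.2 CPM in WT replicates 1 to 3 and at 26.1, 21 and 22.8 CPM in Sdha-KO replicates 1 to 3, without overlap; where its deleted exons lie relative to the 3' reads is not given in the sources used here. Among markers of alveolar macrophages Chil3 was at 3507 to 5424 CPM over the 6 libraries, while Siglecf and Adgre1 had no count in Sdha-KO replicate 1.

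Both metallothionein genes were among the abundant transcripts of these macrophages and were higher in every Sdha-KO library than in any WT library. Mt2 rose 4.88-fold and Mt1 was 2.71-fold higher, and only Mt2 passed the test across all genes. Neither the sensor gene Mtf1 nor any of the 3 zinc transporter genes passed, and each of these 4 overlapped between genotypes.

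Mt2 (ENSMUSG00000031762.7, chromosome 8, 94172664 to 94173568, mm10, plus strand, protein-coding) had 206, 235 and 312 CPM in WT replicates 1 to 3 and 1107, 1199 and 1373 CPM in Sdha-KO replicates 1 to 3. The lowest Sdha-KO library lay above 3 times the highest WT library. The means were 251 ± 54.6 CPM in WT and 1226 ± 135 CPM in Sdha-KO (SD, n = 3). The fitted log2 fold change was 2.29 (SE 0.298, edgeR quasi-likelihood, Benjamini-Hochberg adjusted p = 0.0137). This threshold was passed by 5 of 9963 tested genes, which is 0.0502%, and Mt2 was the fourth of them by p. Within batches the Sdha-KO library was 5.37-fold, 5.1-fold and 4.4-fold above its WT partner in batches 1 to 3. Leaving out WT replicate 1 (edgeR adjusted p = 0.091), Sdha-KO replicate 1 (0.0612) or Sdha-KO replicate 3 (0.179) ended the call, while the log2 fold change stayed between 2.16 and 2.47 whichever library was left out. With the replicate number as a block the log2 fold change was 2.30 and the adjusted p 0.0909 (edgeR), in a fit that called 0 genes (0% of those tested, with 296 genes reaching an unadjusted p under 0.05), whereas DESeq2 called 72 genes and limma-voom 7 in the same blocked design, Mt2 among both (adjusted p = 0.0162 and 0.0489).

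Mt1 (ENSMUSG00000031765.8, chromosome 8, 94179082 to 94180327, plus strand, protein-coding) lies 5514 bases beyond the end of Mt2. It had 627, 481 and 672 CPM in WT replicates 1 to 3 and 1438, 1578 and 1807 CPM in Sdha-KO replicates 1 to 3. All 3 Sdha-KO values were more than 2 times the highest WT value. The means were 593 ± 100 CPM and 1608 ± 186 CPM (SD, n = 3), and the log2 fold change was 1.44 (SE 0.272, edgeR adjusted p = 0.126). By p Mt1 stood at place 15 of the 9963 genes. Within batches the Sdha-KO library was 2.29-fold, 3.28-fold and 2.69-fold above WT. Sdha-KO lay above WT without overlap in 5.04% of tested genes, a group that held 2 of the 6 members, Mt1 and Mt2.

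The call for Mt1 changed with the fit. It passed in limma-voom (adjusted p = 0.00448), which called 0.201% of genes, and in edgeR with no filter on low counts (adjusted p = 2.51e-05), which called 0.312%. With the replicate block over all 6 libraries Mt1 did not pass in edgeR (adjusted p = 0.383), DESeq2 (0.274) or limma-voom (0.0906). In the 4 libraries of batches 2 and 3 edgeR called 0.251% of genes, Mt2 among them (adjusted p = 0.0206), and gave Mt1 an adjusted p of 0.0544. With the replicate block on those 4 libraries, a fit with 1 library per batch and genotype that called 3.01% of genes, Mt1 passed (edgeR adjusted p = 3.97e-06). In those 4 libraries Xist, expressed from the inactive X, had 4608 and 6055 counts in WT and 498 and 822 in Sdha-KO, in order of replicate. For Ddx3y, a gene of the Y chromosome, the counts were 0 and 143 in WT against 354 and 432 in Sdha-KO, so that 3 of the 4 libraries held counts of both genes, and sex and genotype cannot be told apart in them. In batch 1, with 1 library per genotype, the order was the opposite, with 0 counts of Xist and 222 of Ddx3y in WT and 2683 and 0 in Sdha-KO. The part of sex in the levels of Mt1 and Mt2 was not tested, and 1 library per genotype in batch 1 cannot decide it.

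**Figure D2:**
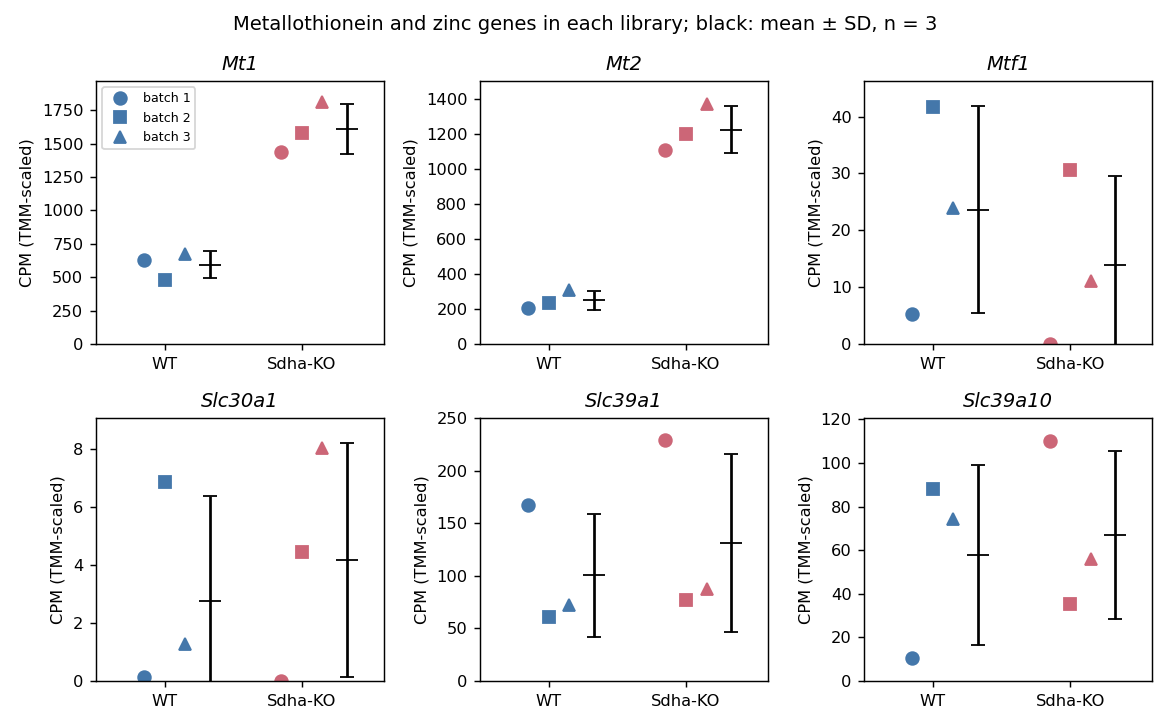
Composition-scaled CPM (linear axes from 0) of the 6 members in each library, by genotype, with a marker for each batch and the mean ± SD (n = 3) in black; bars that would pass below 0 end at the axis. Mt1 and Mt2 separate the genotypes (481 to 672 against 1438 to 1807 CPM and 206 to 312 against 1107 to 1373 CPM), and the other 4 genes overlap.

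Mt1 and Mt2 together gave 833, 716 and 984 CPM in WT replicates 1 to 3 and 2545, 2777 and 3180 CPM in Sdha-KO replicates 1 to 3. As a share of all counts, with no composition factor, the pair held 0.0825%, 0.0555% and 0.0962% in WT and 0.36%, 0.276% and 0.293% in Sdha-KO. Every Sdha-KO share was above every WT share. These shares include Rn45s in the total, and its part differed between libraries. Ranked by count within a library, Mt1 held places 77 to 117 in WT and 18 to 29 in Sdha-KO, and Mt2 moved from places 261 to 477 to places 32 to 45. The other metallothionein genes were near or at the limit: Mt3, the brain form, had 2 counts in Sdha-KO replicate 2 and none elsewhere, and Mt4, the form of stratified epithelia, had none.

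The balance between the metallothioneins also differed by genotype. Mt2 made up 24.8%, 32.8% and 31.7% of the counts of the pair in the WT libraries and 43.5%, 43.2% and 43.2% in the Sdha-KO libraries, in order of replicate. This share does not depend on library scaling, since both counts come from the same library. The exact 95% binomial intervals, which cover counting error only, reached at most 34.5% in WT and began at 42.4% or above in Sdha-KO. The mean share was 29.8% ± 4.38 in WT and 43.3% ± 0.193 in Sdha-KO (SD, n = 3). The WT SD rests largely on WT replicate 1, a batch 1 library, since the intervals of WT replicates 2 and 3 overlapped. Intervals of the Sdha-KO libraries overlapped as well, and a difference in spread between genotypes was not tested. Mt1 remained the more abundant of the pair in all 6 libraries, and a 3' kit gives about 1 read position per transcript, so that counts of both genes can be set side by side without their lengths. The longest exact stretch that annotated Mt1 and Mt2 transcripts share is 20 bases. Exons of Mt2 overlap those of Gm45774, a gene on the other strand that was not analysed here, over 432 bases, and reads of the latter could not be told apart if counting ignored strand. Of the 30-base words in the last 400 bases of Mt2 transcripts, 49% also occur on either strand in transcripts of other genes (48.2% in Gm45774 and 0.864% in Pip5k1a), against 0% for Mt1.

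**Figure D3:**
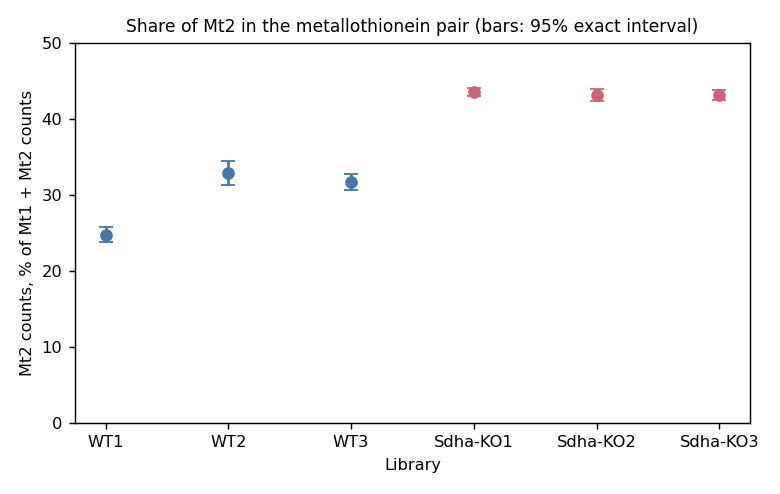
Mt2 counts as a percentage of Mt1 plus Mt2 counts (vertical axis, from 0) in each of the 6 libraries, with exact 95% binomial intervals. The 3 Sdha-KO libraries sit between 43.2% and 43.5%, above the 3 WT libraries at 24.8% to 32.8%.

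Mtf1 (ENSMUSG00000028890.13, chromosome 4, 124802104 to 124849800, plus strand), the zinc sensor, was a low-abundance transcript. Its counts were 43, 188 and 188 in WT and 0, 165 and 75 in Sdha-KO replicates 1 to 3, or 5.27, 41.7 and 23.9 CPM and 0, 30.7 and 11.2 CPM. In each batch the Sdha-KO library was the lower, but the spread between batches was wider than the difference. The means were 23.6 ± 18.2 and 14 ± 15.5 CPM (SD, n = 3; log2 fold change -0.76, SE 2.02, edgeR adjusted p = 1). Its last exons overlap 721 bases of 1110065P20Rik on the other strand, which had 30, 18 and 20 counts in WT and 0, 35 and 4 in Sdha-KO, and 36.8% of the 30-base words at its transcript ends are shared with that gene on either strand, so the count of Mtf1 is uncertain. With 1 library left out the log2 fold change of Mtf1 ran from -2.06 (without Sdha-KO replicate 2) to -0.08 (without WT replicate 2), and it was -2.20 with the replicate block.

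Slc30a1 (ENSMUSG00000037434.7, chromosome 1, 191906767 to 191913247, plus strand) encodes the plasma membrane zinc exporter and is a standard target of MTF1. Its counts were 1, 31 and 10 in the WT libraries and 0, 24 and 54 in the Sdha-KO libraries, in order of replicate. At 0.123, 6.88 and 1.27 CPM against 0, 4.46 and 8.05 CPM it was near the detection limit in both batch 1 libraries and in no fixed order in the others. The fitted log2 fold change was 0.60 with an SE of 2.55 (edgeR adjusted p = 1), and its sign was negative in limma-voom (-0.06) and without Sdha-KO replicate 3 (-0.31). The log2 fold changes of Mt1 (1.44) and Mt2 (2.29) were smaller than the SE of 2.55 for Slc30a1. A difference of that size in Slc30a1 could therefore not be resolved in this fit. Without both batch 1 libraries the SE for Slc30a1 was 1.48 (edgeR). Its first exon overlaps the antisense gene 1700034H15Rik over 468 bases, for which the table holds 1 count in all.

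Slc39a1 (ENSMUSG00000052310.9, chromosome 3, 90248172 to 90253612, plus strand) encodes a zinc importer of the plasma membrane and was the most abundant transcript of its family by mean level. It had 168, 61.2 and 72.6 CPM in WT replicates 1 to 3 and 229, 77.4 and 87.5 CPM in Sdha-KO replicates 1 to 3. Both batch 1 libraries stood above the other 4, and within batches the Sdha-KO library was 1.37-fold, 1.26-fold and 1.21-fold higher. Over the groups the means were 100.4 ± 58.4 and 131 ± 85 CPM (SD, n = 3; log2 fold change 0.39, SE 0.573, edgeR adjusted p = 1). Without Sdha-KO replicate 1 the log2 fold change was -0.29, in a fit whose genotypes no longer held the same batches.

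Slc39a10 (ENSMUSG00000025986.6, chromosome 1, 46807544 to 46892852, minus strand) encodes an importer that MTF1 is known to repress. It had 10.7, 88.1 and 74.4 CPM in WT replicates 1 to 3 and 110, 35.3 and 55.9 CPM in Sdha-KO replicates 1 to 3. The batches went opposite ways: the Sdha-KO library was 10.3-fold higher in batch 1, and the ratio of Sdha-KO to WT was 0.401 in batch 2 and 0.752 in batch 3. The log2 fold change was 0.22 with 6 libraries (SE 0.806, edgeR adjusted p = 1) and -0.82 in the 4 libraries of batches 2 and 3 (adjusted p = 0.503). Libraries of batch 1 thus set its sign, and no genotype difference was resolved. Of the 30-base words in the last 400 bases of its annotated transcripts, on either strand, 6.36% also occur in transcripts of other genes.

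**Figure D4:**
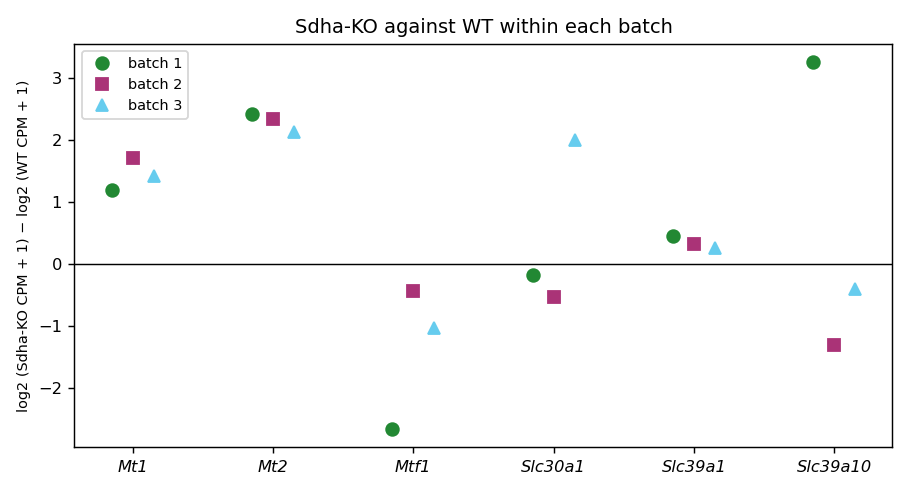
Difference of log2(CPM + 1) between the Sdha-KO and the WT library of each batch (vertical axis) for the 6 members, with 1 point per batch. Mt1 lies between 1.20 and 1.71 and Mt2 between 2.13 and 2.42 in all 3 batches, Slc39a1 is slightly positive in all 3, and Slc39a10 and Slc30a1 change sign between batches.

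The other zinc transporter genes were read from family lists. Among 10 Slc30 genes, 5 were tested, 4 had a positive and 1 a negative log2 fold change, 0 passed the edgeR threshold, and the median was 0.51. Among 14 Slc39 genes, 12 were tested, 7 were positive and 5 negative, 0 passed, and the median was 0.17. Over all tested genes 45% were positive and the median was -0.13, which moved to 0.05 when only library totals were used for scaling. On that scaling 9 of the 12 Slc39 genes were positive. With 1 library left out the Slc30 median ran from -0.04 (without WT replicate 1) to 1.68 (without WT replicate 2), the Slc39 median from 0.06 (without WT replicate 1) to 0.54 (without Sdha-KO replicate 2), and the median of all genes from -0.38 to 0.06. Without both batch 1 libraries the Slc30 median was 0.52 and the Slc39 median 0.06. With the replicate block as well, 1 of 13 tested Slc39 genes and 0 of 5 Slc30 genes passed in edgeR, beside 3.01% of all tested genes. In that fit 6 of the 13 Slc39 genes were positive, with a median of -0.07.

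Slc30a7, which loads zinc into the secretory pathway, had 24 CPM on average in WT and 29.8 CPM in Sdha-KO, and Slc30a9 had 17.7 and 10.1 CPM. Slc30a6 was at 7.84, 6.44 and 6.88 CPM in WT and 50.3, 13.9 and 7.6 CPM in Sdha-KO replicates 1 to 3, with Sdha-KO replicate 1 far above the rest. Slc30a5, its partner in the early secretory pathway, averaged 2.19 and 3.13 CPM. These 4 genes all overlapped between genotypes.

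In the Slc39 family the levels after Slc39a1 and Slc39a10 were those of Slc39a2, Slc39a7 and Slc39a11. Slc39a2 had 53.6, 47.7 and 25.7 CPM in WT and 29.7, 83.7 and 128 CPM in Sdha-KO replicates 1 to 3 (log2 fold change 0.93, SE 0.711). Slc39a7, which releases zinc from the endoplasmic reticulum, averaged 37.8 CPM in WT and 35.8 CPM in Sdha-KO (log2 fold change -0.08, SE 0.953). Slc39a11 had 115, 20.6 and 20 CPM in WT and 0, 22.5 and 16.2 CPM in Sdha-KO, so that the batch 1 libraries alone differed widely. Slc39a6 was the only one of the 17 tested genes of both families without overlap, against 5.04% of all tested genes with Sdha-KO above, and was chosen here after its values were seen, at 0.245, 11.5 and 14.3 CPM in WT and 32, 21 and 32.5 CPM in Sdha-KO (log2 fold change 1.71, SE 1.79, edgeR adjusted p = 1). Also named outside the order of abundance, the importer gene Slc39a8, a known target of inflammatory signals, had 21 or fewer counts in each library and was not tested. Neighbours in the order of abundance differed by less than the spread over the 6 libraries.

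**Figure D5:**
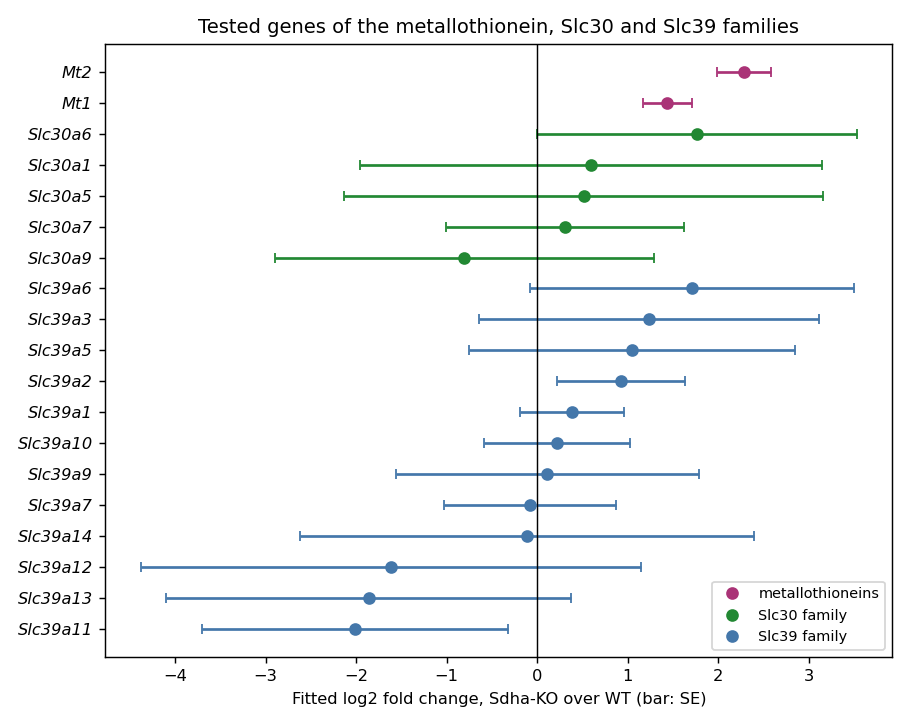
Fitted log2 fold change, Sdha-KO over WT, with its SE (horizontal axis) for the 19 tested genes of the metallothionein, Slc30 and Slc39 families. The bars of Mt1 (1.44 ± 0.272) and Mt2 (2.29 ± 0.298) lie clear of 0, as do those of Slc39a2 (0.93 ± 0.711) and Slc39a11 (-2.01 ± 1.69). Of all these genes only Mt2 passed the threshold. The SE of each tested transporter gene is larger than that of Mt1 or Mt2, from 0.573 (Slc39a1) upward.

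Other genes known to respond to MTF1 gave few values. Of the 5 that have a row, 4 were tested, all 4 with a positive fold change and 0 past the edgeR threshold (median 0.87), beside 45% positive and a median of -0.13 over all tested genes. With the replicate block 3 of 4 were positive in edgeR and 2 of 4 in limma-voom. With 1 library left out the median ran from 0.28 (without Sdha-KO replicate 3, with 4 of 5 positive) to 1.35 (without WT replicate 3). Csrp1, a LIM-domain protein gene, had 20.8, 6.44 and 17.4 CPM in WT and 97.8, 32.9 and 24 CPM in Sdha-KO replicates 1 to 3, without overlap, as in 5.04% of all tested genes (log2 fold change 1.79, SE 1.17, edgeR adjusted p = 1). Gclc, which encodes the catalytic subunit of glutathione synthesis, averaged 17.8 and 24 CPM and overlapped.

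Copper also binds metallothioneins. Of 18 copper-handling genes 12 were tested, 7 were positive and 5 negative, and 0 passed (median 0.36, from 0.20 without WT replicate 1 to 1.32 without WT replicate 3). The copper and zinc superoxide dismutase gene Sod1 had 115, 84.3 and 115 CPM in WT and 109, 129 and 179 CPM in Sdha-KO replicates 1 to 3. The copper chaperone gene Atox1 averaged 68.2 and 62.6 CPM. Cox19, an assembly factor of cytochrome c oxidase, was at 25, 14.6 and 15.2 CPM in WT and 0, 0.372 and 2.24 CPM in Sdha-KO, without overlap (log2 fold change -4.38, SE 2.42, edgeR adjusted p = 1); Sdha-KO lay below WT without overlap in 9.27% of tested genes.

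Glucocorticoids also induce Mt1 and Mt2, and genes of that response were read in the same way. Of 12 genes 10 were tested, 3 were positive and 7 negative, 0 passed, and the median was -0.51, beside 45% positive and a median of -0.13 over all tested genes. With 1 library left out the median ran from -0.74 (without WT replicate 2) to -0.08 (without WT replicate 3), and without Sdha-KO replicate 1 it was -0.14 with 5 of 10 positive. Without both batch 1 libraries and with the replicate block, 1 of 10 passed in edgeR, beside 3.01% of all tested genes. Sgk1, a kinase gene, averaged 561 CPM in WT and 510 CPM in Sdha-KO, and the phosphatase gene Dusp1 averaged 451 and 337 CPM. Tsc22d3, also called GILZ, averaged 70.2 and 46.6 CPM and Fkbp5 34.7 and 15.7 CPM. The 3 genes with a positive log2 fold change were the decoy receptor gene Il1r2 (3.60, SE 2.46), Ddit4 (1.83, SE 2.70) and the clock gene Per1 (1.35, SE 1.62), each at an edgeR adjusted p of 1. Il1r2 had 0, 5.55 and 3.06 CPM in WT and 0, 58.8 and 45.5 CPM in Sdha-KO replicates 1 to 3, and without both batch 1 libraries its log2 fold change was 3.62 (SE 0.56, edgeR adjusted p = 0.059). Tsc22d3, Fkbp5, Il1r2, Ddit4 and Per1 were named after their values were seen. All 7 genes overlapped between genotypes, and their difference from Mt1 and Mt2 was not tested.

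The genes nearest in pattern to each metallothionein gene over the 6 libraries were taken among 6576 other genes with a mean of at least 10 CPM. The measure was the root mean square difference of log2(CPM + 1) after centring each gene. It includes the genotype difference on which the members were chosen, so covariation within a genotype was not measured. For Mt2 these were Mthfd2 (0.261), a mitochondrial folate enzyme gene, Rnf128 (0.306), H2-Aa (0.351), Eno1b (0.366) and Cav1 (0.395). Mthfd2 was at 20.1, 20 and 23.2 CPM in WT and 132, 110 and 93 CPM in Sdha-KO replicates 1 to 3. For Mt1 they were Snhg8 (0.182), Cdkn1a (0.255), Slc7a2 (0.256), Atp6v1c1 (0.263) and Esd (0.265). Mt1 came at place 13 for Mt2, and Mt2 at place 95 for Mt1. Slc39a1, Slc39a10 and Mtf1 came at places 1308 to 5194 in these orders. Slc30a1 lay below the limit of 10 CPM and was not ranked.

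Markers of other cell types were read for the same libraries. Of 11 dendritic cell markers 8 were tested and 7 were positive, with a summed level of 111 to 359 CPM in WT and 311 to 1830 CPM in Sdha-KO, mostly from H2-Ab1; Zbtb46 was at 0 in 5 libraries and Flt3 in 4. Of 9 markers of monocytes and interstitial macrophages 8 were tested and 7 were positive, at 30.4 to 86.3 CPM and 79.5 to 203 CPM in sum, and C1qb and C1qc were at 0 in both batch 1 libraries. The 14 alveolar macrophage markers summed to 8172 to 9495 CPM and 6485 to 8462 CPM, with 5 positive, 9 negative and Ear1 past the threshold. Of these 14, Car4 and Fabp5 were above WT in every Sdha-KO library and Ear1, Ear2, Krt79 and Siglecf below it. Of the monocyte markers, Ccr2 was above WT without overlap, at 5.39 to 21.5 CPM against 27.7 to 79 CPM. Over all tested genes 45% were positive, 5.04% lay above WT without overlap and 9.27% lay below.

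The remaining marker lists held no gene past the threshold. Of the eosinophil markers, Epx and Prg2 were at 0 in all 6 libraries and Ear6 alone was tested, at 0, 13.3 and 18.5 CPM in WT and 261, 90.9 and 76.3 CPM in Sdha-KO replicates 1 to 3, without overlap. Neutrophil markers summed to 62.3 to 92.3 CPM in WT and 79.9 to 189 CPM in Sdha-KO, with 4 of 4 tested genes positive, and Ly6g was not analysed here. Lymphocyte markers summed to 0 to 37.3 CPM and 18.6 to 38.2 CPM (2 of 6 positive), with Cd8a and Ncr1 at 0 throughout. Lung epithelial markers summed to 301 to 491 CPM and 200 to 852 CPM (7 of 11 positive), with Scgb1a1 the highest by mean level. Endothelial and stromal markers summed to 62.9 to 141 CPM and 13.7 to 183 CPM (2 of 8 positive), with Cdh5 lower in every Sdha-KO library. Red blood cell markers summed to 161 to 249 CPM and 87 to 389 CPM (4 of 4 positive). The same shares over all tested genes stand beside these lists: 45% positive, 5.04% above WT without overlap and 9.27% below. The summed levels of these lists overlapped between genotypes except for the eosinophil list. The part of the other markers in the metallothionein levels was not tested, and in bulk RNA a change in cell makeup and a change in RNA per cell cannot be told apart.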

How the data were processed

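RNA of 6 libraries (3 WT, 3 Sdha-KO) was made into QuantSeq 3' libraries, per the labels' protocols. The authors deposited raw counts per gene symbol. Per the submitters' processing notes, Bowtie2 and bedtools were used with mm10; versions, annotation, strand use and handling of multiply matching reads: not given in the sources used here. Without molecular identifiers in the protocol, PCR copies are counted too. Of 23282 rows, 7901 were 0 throughout.

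Genotypes were compared on the counts as deposited with edgeR 4.0.16 in R 4.3.3 (filterByExpr, minimum count 10, TMM, robust quasi-likelihood test, genotype as the only term), with Benjamini-Hochberg adjustment over 9963 genes and a threshold of 0.05. CPM is the count over the TMM-scaled library total, and the SE is the log2 fold change divided by the square root of F. The fit was tested on simulated counts. At a simulated spread below that of these libraries it called no changed gene, so a gene that did not pass can still differ. The biological coefficient of variation, the spread between libraries beyond counting error, was 1.4 over all 6 libraries and 0.677 without batch 1. Alternatives were RLE factors, library totals, other filters, DESeq2 1.42.0, limma-voom (limma 3.58.1), the replicate block, leaving out each library or both batch 1 libraries, and library sizes without Rn45s, Rn4.5s and Lars2; the block combined with DESeq2, limma-voom or 4 libraries was added after seeing the data. The replicate number equals the labelled batch, so it pairs the samples; deviations from group means correlated at 0.147, 0.135 and 0.103 for pairs with 1 number and from -0.149 to 0.0874 for the rest (log2(CPM + 1), across genes).

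Members and lists were chosen with earlier results of these data known; 2 cell type markers were taken out of their lists and are not reported here. Named are all members, the most abundant family members (up to 5), copper, MTF1-responsive and glucocorticoid genes past the threshold or without overlap at 10 CPM or more, the 2 most abundant genes of each of these lists, and the 5 nearest genes in pattern. Positions are those of GENCODE M21 and upstream sequences those of RefSeq (GRCm38.p6).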

Additional observations from a re-analysis of the deposited data

How the results depend on the processing

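The number of genes past the threshold was 5 and became 9 with library totals alone, 48 with no filter on low counts, 0 with the stricter filter (255 at an unadjusted p under 0.05 in edgeR), 21 in DESeq2, 20 in limma-voom, 0 with the replicate block (296 at an unadjusted p under 0.05), 27 without both batch 1 libraries, 324 with the replicate block as well and 72 in DESeq2 with the replicate block. It ran from 0 to 13 when each library was left out in turn.

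Mt2 had a log2 fold change of 2.24 to 2.54 over the other 12 settings and passed in 10 of them; it did not pass with the stricter filter (2.31, adjusted p = 0.0854) or with the replicate block (2.30, adjusted p = 0.0909). With 1 library left out it ran from 2.16 to 2.47 and passed in 3 of 6 fits. Mt1 ran from 1.37 to 1.68 and passed in 3 of 12 settings: no filter on low counts (1.45), limma-voom (1.38) and the replicate block without both batch 1 libraries (1.58). With 1 library left out it ran from 1.30 to 1.54 and passed in none of 6 (adjusted p = 0.221 to 0.812). Mtf1 kept a negative sign in all 18 and passed in none, from -3.04 to -0.57 over the other settings and from -2.06 to -0.08 with 1 library left out. Slc30a1 turned negative in limma-voom (-0.057), in DESeq2 with the replicate block (-0.20) and in limma-voom with the replicate block (-0.43), and ran from -0.31 to 2.54 with 1 library left out. Slc39a1 ran from -0.29 to 0.97 with 1 library left out. Slc39a10 turned negative without both batch 1 libraries (-0.82, and -0.85 with the replicate block as well) and ran from -0.33 to 0.65 with 1 library left out. Why Mt2 lost its call in these fits was not tested, nor was the cause of the sign changes. Counts of at most 54 per library limit what can be said of Slc30a1.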
